A study of Mus musculus with 208 samples.

Results

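The 10 serotonin receptor genes Htr1a, Htr1b, Htr1d, Htr1f, Htr2a, Htr2c, Htr3a, Htr4, Htr5a and Htr7 were read by symbol from the count and CPM tables of 4 brain regions, where they are 10 of 46403 listed genes. All 10 had a total count above 10, and so were tested, in each region. The nuclear RNA came from NeuN+ nuclei, about 5000 for each library, sorted from the hypothalamus, hippocampus, prefrontal cortex (PFC) or striatum of adult wild type C57BL/6NTac mice of both sexes. Dams had received morphine at 10 mg/kg/day or saline from an osmotic minipump, starting before mating. Their pups were moved to drug-naive surrogates and injected with morphine at 10 mg/kg or saline on postnatal days 1 to 14, so the MOR groups also went through spontaneous withdrawal. In adulthood each animal received LPS (lipopolysaccharide, a bacterial component that triggers inflammation) at 2 mg/kg or saline, 2 h before collection. In SAL-SAL both were saline, MOR-SAL had perinatal morphine and adult saline, SAL-LPS had perinatal saline and adult LPS, and MOR-LPS had both morphine and LPS. In that order there were 11, 14, 12 and 14 libraries in the hypothalamus, 13, 12, 14 and 16 in the hippocampus, 10, 12, 10 and 16 for PFC tissue, and 13, 8, 15 and 18 for striatum. The replicate labels name 71 animals of 18 litters, 8 exposed to saline and 10 to morphine, for the 208 libraries. The study's methods count more litters, so a litter here is a litter number of the labels. No such litter held both exposures and 1 held both sexes, so litters were nested in exposure and nearly all in sex.

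Serotonin is released by raphe neurons throughout the forebrain, where its receptors set its effect on each target cell. The HTR1 and HTR5 receptors couple to inhibitory G proteins of the Gi/o class, HTR2 receptors to Gq and phospholipase C, HTR4 and HTR7 to Gs and adenylyl cyclase, and HTR3A forms a cation channel. In the hypothalamus these receptors take part in the control of feeding, temperature and stress responses, and in the striatum, cortex and hippocampus in the control of transmitter release and excitability.

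Total counts ran from 7673 to 35077048 in the hypothalamus, and 227025 to 24071488 in the hippocampus. They lay between 3056648 and 21988203 in the PFC, and between 5954700 and 92945090 in the striatum. CPM are counts divided by the library's total and scaled to the same sum in each library. In a library of median depth, 3 counts, the most that a count of 0 allows, came to 0.542, 0.327, 0.311 and 0.277 CPM in that order of regions, and such limits cover counting error only. The neuronal markers Rbfox3, Snap25, Syt1 and Map2 were present, with a median sum of 2001 CPM in the hypothalamus and of 4575 to 5594 CPM elsewhere. Region markers were mixed. Striatal projection neuron markers had a median sum of 1143 CPM in the PFC and 1136 CPM in the striatum, and exceeded the cortical excitatory markers in 41 of 48 PFC libraries. Another region's marker list, scaled to its level in its own region, was over 2 times the library's own list in 14 hypothalamic, 12 hippocampal, 17 PFC and 14 striatal libraries. Y-linked genes went against the labelled sex in 3, 4, 2 and 0 libraries in that order. Libraries with another region's list over 2 times their own are called libraries with another region's markers below. Leaving out the libraries with another region's markers is an alternative chosen after seeing the data, and its values are given beside the results that they move most. The libraries kept can still hold such markers. In the PFC 17 were left out, while the scaled striatal list was the highest of the region lists in 23 of 48. The hypothalamic table also has counts for more genes. Of 18609 genes with a mean of at least 1 CPM there, 3765 (20.2%) are at 0 in every library of the other 3 tables, with 19 of 13375 (0.142%) the other way round, a difference between the tables. Fitting the genes with a count in all 4 tables alone ended 1 receptor call between regions, that of Htr2a in the hippocampus against the hypothalamus (adjusted p 0.0529). All 10 receptors had counts in all 4 tables. In bulk nuclei, fewer cells of a type and less RNA per cell cannot be told apart.

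In the SAL-SAL libraries the leading receptors differed in order between regions and were partly shared, as Htr1f and Htr2c ranked first and second in both PFC and striatum. The PFC rank of Htr2c did not hold without the libraries with another region's markers. Per kilobase of exon, Htr2c, Htr7 and Htr4 led in the hypothalamus at 8.03 ± 4.07, 6.48 ± 2.97 and 5.11 ± 3.27 mean CPM per kb (SD, n = 11). In the hippocampus Htr4 stood at 33.3 ± 13.4 CPM per kb (n = 13), 45.9% of the sum over the 10 genes, and Htr1f followed at 17.5 ± 8.19. Htr1f made up 55.5% of the sum in the PFC, with 36.6 ± 16.2 CPM per kb (n = 10), ahead of Htr2c at 9.20 ± 7.33. The PFC mean of Htr2c was 85.9 CPM with and 40.6 CPM without the libraries with another region's markers, over 9.328 kb of exon. Without them Htr2a (39.2 CPM over 5.606 kb) and Htr4 (23.4 CPM over 4.908 kb) stood above Htr2c per length. The leading receptors of the striatum were Htr1f at 20.3 ± 7.04, Htr2c at 19.0 ± 5.76, Htr4 at 13.9 ± 7.15 and Htr7 at 10.0 ± 5.61 CPM per kb (n = 13). The lowest per length were Htr1d in the hypothalamus (0.114), Htr1b in the hippocampus (0.229), and Htr1a in the PFC (0.460) and striatum (0.640).

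**Figure D1:**
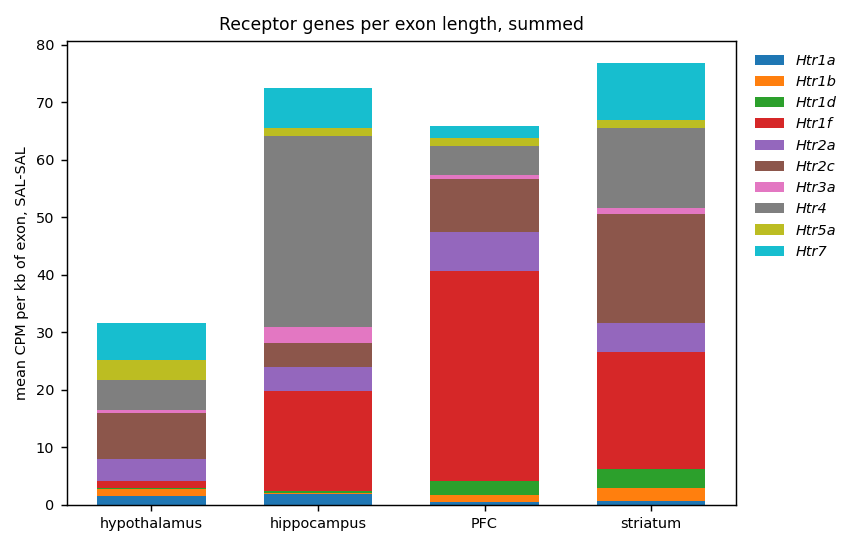
Mean CPM per kb of exon in the SAL-SAL libraries, stacked over the 10 receptor genes, for the 4 regions (11, 13, 10 and 13 libraries). The grey block of Htr4 (33.3 CPM per kb) is the tallest of the hippocampus, the red block of Htr1f (36.6 CPM per kb) that of the PFC, and Htr1f is a thin band (1.28 CPM per kb) in the hypothalamus.

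Each pair of regions was compared in the SAL-SAL libraries by the quasi-likelihood test of edgeR, with p-values adjusted over 27637 genes after Benjamini and Hochberg. A gene is said to be called where that adjusted p was below 0.05. Against the hypothalamus, 5 of the 10 receptors were called in the hippocampus, 4 in PFC libraries and 6 in striatal ones, where 52.8%, 54.1% and 51.5% of all genes were called, so these shares are close to those of all genes. The median log2FC of all genes was -0.34, -0.39 and -0.25 in these pairs, and receptor values are to be read against it. Among the other regions, 7 receptors were called between PFC and hippocampus (9.98% of all genes), 4 between striatum and hippocampus (7.59%) and 3 between striatum and PFC (9.31%). DESeq2 called 4, 4, 5, 7, 5 and 3 receptors in these 6 pairs, and 11615, 11801, 11412, 3131, 2127 and 3105 of all 27637 genes. With the libraries of all 4 conditions, 8 were called between striatum and hippocampus and 6 between striatum and PFC. That fit holds more libraries, and its share of all genes called is not given here. In all, 29 of 60 comparisons were called. Counting each animal as a replicate block, since regions share animals, left 4 of the 7 calls between PFC and hippocampus.

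**Figure D2:**
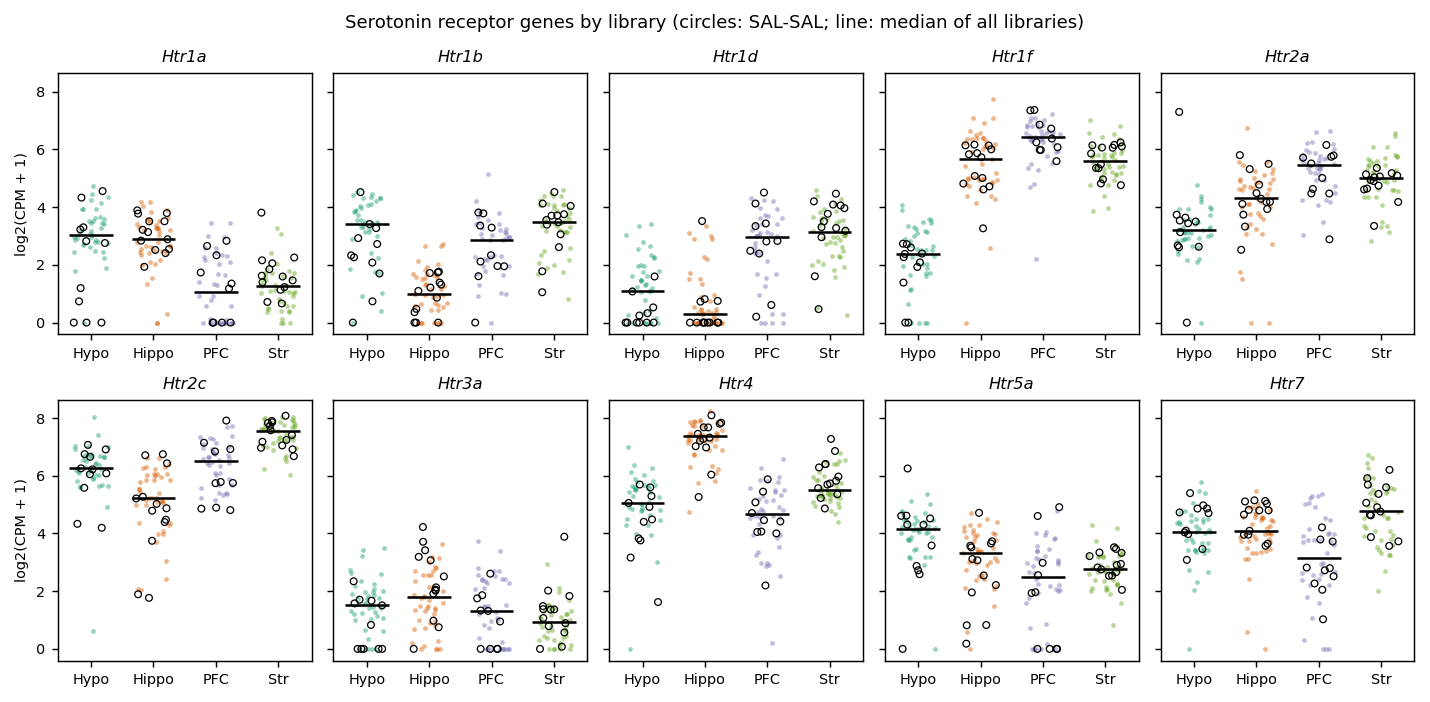
Level of each receptor gene in each of the 208 libraries, as log2(CPM + 1), by region (hypothalamus, hippocampus, PFC, striatum). Open circles are SAL-SAL libraries, coloured points the other conditions, and lines the median over all libraries. Htr1f is lowest in the hypothalamus and Htr4 is highest in the hippocampus, while the regions overlap widely for Htr3a and Htr5a.

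Of the Gi/o-coupled receptors, Htr1f (chr16:64924729-65105854, mm10, minus strand), a target of migraine drugs, was called in 5 of 6 pairs of regions. In SAL-SAL its lowest, median and highest CPM were 0, 3.82 and 5.66 in the hypothalamus and 8.62, 52.1 and 70.9 in the hippocampus. They were 47.4, 78.6 and 164 in PFC libraries, and 26.1, 57.1 and 74.9 in striatal ones. Every hypothalamic SAL-SAL library lay below every SAL-SAL library of the other regions. Against the hypothalamus, Htr1f was higher by a log2FC of 3.81 (SE 0.34, adjusted p 6.38e-14) in the hippocampus, by 5.09 (SE 0.37, adjusted p 3.76e-17) in PFC libraries and by 4.10 (SE 0.35, adjusted p 7.18e-15) in striatal ones. The PFC also exceeded the hippocampus, with a log2FC of 1.28 (SE 0.29, adjusted p 0.00237). The striatum was lower than the PFC by a log2FC of -0.99 (SE 0.29, adjusted p 0.0222), a call lost with animal as a replicate block (adjusted p 0.112). Striatum against hippocampus, neighbours in this order, was not called (adjusted p 0.717).

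Htr1b (chr9:81628291-81633828, minus strand) and Htr1d (chr4:136423524-136444398, plus strand) encode receptors found on axon terminals, where they limit transmitter release. Htr1b ran from 1.07 to 22.01 CPM in the striatum with a median of 10.7, and from 0 to 21.98 in the hypothalamus with 4.03. The PFC ran from 0 to 13.1 CPM (median 3.69) and the hippocampus from 0 to 2.40 (median 1.14). The hippocampus was the low region, against which Htr1b was higher by a log2FC of 3.31 (SE 0.62, adjusted p 0.000258) in the striatum and 2.67 (SE 0.62, adjusted p 0.00336) in the PFC, the latter not called with animal as a replicate block (adjusted p 0.0550). The hippocampus was lower than the hypothalamus by a log2FC of -2.36 (SE 0.62, adjusted p 0.00112). Htr1d had a median of 10.4 CPM in the striatum, 6.07 in the PFC, and 0 in both the hippocampus and the hypothalamus, where 9 of 13 and 6 of 11 libraries were at 0. Its 4 called pairs set the striatum or PFC above the hypothalamus (log2FC 4.80, SE 1.02, adjusted p 7.73e-05, and 4.70, SE 1.04, adjusted p 0.000152) or the hippocampus (log2FC 3.50, SE 0.86, adjusted p 0.00603, and 3.40, SE 0.89, adjusted p 0.00932). The PFC means of both genes fell without the libraries with another region's markers, an alternative chosen after seeing the data. The mean of Htr1b went from 5.92 ± 4.68 (n = 10) to 2.53 ± 1.401 CPM (n = 6), and its median from 3.69 to 2.88. For Htr1d the mean went from 7.89 ± 6.80 to 4.37 ± 3.50 CPM and the median from 6.07 to 5.13. PFC against hippocampus was then no longer called for Htr1b (adjusted p 0.284) or Htr1d (adjusted p 0.221), with fewer libraries in the fit. The part of the smaller number of libraries in these lost calls was not tested. Striatum against PFC was then called for Htr1b (log2FC 2.39, adjusted p 0.0286).

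Htr1a (chr13:105443639-105448122, plus strand, 1 exon) encodes the receptor that inhibits raphe neurons themselves and is known from the hippocampus. Its mean was 8.12 ± 3.64 CPM (SD, n = 13) in the hippocampus, 6.61 ± 7.84 (n = 11) in the hypothalamus, 2.87 ± 3.22 (n = 13) in the striatum and 2.06 ± 2.33 (n = 10) in the PFC. Of the 6 pairs, edgeR called only the PFC against the hippocampus (log2FC -2.02, SE 0.69, adjusted p 0.0497), and not with animal as a replicate block (adjusted p 0.0656) or without the libraries with another region's markers (adjusted p 0.0821), nor with library size only (adjusted p 0.0553) or without low-depth libraries (adjusted p 0.0502). DESeq2 called the striatum lower than the hippocampus (log2FC -1.61, adjusted p 0.0471). Without the libraries with another region's markers Htr1a in the striatum was lower than in the hippocampus (log2FC -1.88, adjusted p 0.00634) and the hypothalamus (log2FC -1.89, adjusted p 0.00318), and in the PFC lower than in the hypothalamus (log2FC -1.51, adjusted p 0.0307). Htr5a (chr5:27842149-27855088, plus strand), also Gi/o-coupled, had means of 19.1 ± 20.4, 7.58 ± 6.86, 7.00 ± 10.5 and 6.93 ± 2.27 CPM in the hypothalamus, hippocampus, PFC and striatum. It was called in 0 of 6 pairs by edgeR, with 0 at an unadjusted p under 0.05, and its log2FC ran from -1.01 to 0.13, while with animal as a replicate block the PFC was lower than the hypothalamus (log2FC -2.29, adjusted p 0.0488). With the libraries of all 4 conditions Htr5a was called lower than the hypothalamus in the hippocampus (log2FC -0.72), PFC (-1.25) and striatum (-1.22).

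Of the Gq-coupled receptors, Htr2c (chrX:146962513-147197277, plus strand), known from the choroid plexus and from hypothalamic circuits of feeding, had its highest level in the striatum. Its lowest, median and highest CPM there were 102, 169.7 and 269.9, against 27.1, 53.5 and 240.2 in the PFC, 17.3, 73.7 and 133 in the hypothalamus and 2.41, 28.3 and 106 in the hippocampus. The striatum exceeded the hippocampus by a log2FC of 2.25 (SE 0.39, adjusted p 9.75e-05) and the hypothalamus by 1.58 (SE 0.41, adjusted p 0.000887), while striatum against PFC was not called (adjusted p 0.149). Hippocampus against hypothalamus was not called either, but was with library size only (log2FC -1.01, adjusted p 0.0286) and with the libraries of all 4 conditions (log2FC -0.69, adjusted p 6.35e-05). PFC against hippocampus was called too (log2FC 1.31, SE 0.40, adjusted p 0.0261), but not with animal as a replicate block (adjusted p 0.0640) or library size only (adjusted p 0.0748). That difference rested on libraries with another region's markers. Without them the PFC mean went from 85.9 ± 68.4 to 40.6 ± 13.9 CPM (n = 6), the log2FC to the hippocampus was 0.10, and the striatum exceeded the PFC (log2FC 2.18, adjusted p 0.00818). Htr2a (chr14:74640840-74709494, plus strand), the receptor of classical psychedelics, had means of 37.8 ± 19.9 CPM in the PFC, 28.1 ± 8.24 in the striatum and 22.8 ± 14.7 in the hippocampus. All 3 exceeded the hypothalamus, with log2FC of 2.01 (SE 0.47, adjusted p 0.000285), 1.52 (SE 0.45, adjusted p 0.00321) and 1.10 (SE 0.44, adjusted p 0.0306), and none of the 3 was called against another (adjusted p 0.154 to 0.700). The hippocampal call was lost with DESeq2 (log2FC 0.73, adjusted p 0.135), with library size only (0.74, adjusted p 0.198) and with the genes that have a count in all 4 tables (1.06, adjusted p 0.0529), and the striatal call with library size only (1.05, adjusted p 0.0657). Without the libraries with another region's markers the PFC exceeded the hippocampus (log2FC 1.21, adjusted p 0.0207). The hypothalamic mean of 21.3 ± 45.1 CPM (n = 11) rested on 1 shallow library, of animal 4-3, at 157 CPM where the next of all hypothalamic libraries had 26.4, and without the libraries with another region's markers it was 9.65 ± 2.43 (n = 7).

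Of the Gs-coupled receptors, Htr4 had its highest level in the hippocampus and Htr7 its lowest in the PFC. Htr4 (chr18:62324204-62496577, plus strand), a receptor that raises neuronal excitability, ran from 37.5 to 273 CPM in the hippocampus with a median of 159, and from 28.2 to 154 in the striatum with 55.8. The hypothalamus ran from 2.08 to 50.9 CPM (median 21.4) and the PFC from 3.59 to 57.8 (median 20.7). The hippocampus exceeded the hypothalamus by a log2FC of 2.95 (SE 0.36, adjusted p 7.96e-10). Against it, the PFC was lower by -2.51 (SE 0.36, adjusted p 3.73e-06) and the striatum by -1.24 (SE 0.31, adjusted p 0.00817). The striatum was above the hypothalamus (log2FC 1.71, SE 0.34, adjusted p 2.84e-05) and the PFC (log2FC 1.28, SE 0.35, adjusted p 0.0164), while hypothalamus against PFC was not called (adjusted p 0.326). Htr7 (chr19:35958734-36057507, minus strand), known for its part in circadian and thermal control, had a PFC mean of 7.29 ± 5.17 CPM against 22.04 ± 10.1 in the hypothalamus, 23.6 ± 8.91 in the hippocampus and 34.1 ± 19.1 in the striatum. The PFC was lower than the hypothalamus (log2FC -1.32, SE 0.36, adjusted p 0.00196) and the hippocampus (log2FC -1.59, SE 0.34, adjusted p 0.00140), and the striatum exceeded the PFC (log2FC 2.16, SE 0.35, adjusted p 4.99e-05). The striatum was also above the hypothalamus (log2FC 0.84, SE 0.32, adjusted p 0.0262), but not with animal as a replicate block (adjusted p 0.0841) or without the libraries with another region's markers (adjusted p 0.153), and in 3 further alternatives its adjusted p was 0.0516 to 0.186. With the libraries of all 4 conditions the PFC against the hypothalamus was -0.38 (adjusted p 0.1199).

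Htr3a (chr9:48899213-48911099, minus strand), the channel subunit that marks a class of cortical interneurons, was near the counting limit in many libraries. It had means of 5.67 ± 5.15 CPM in the hippocampus, 2.25 ± 3.59 in the striatum, 1.403 ± 1.64 in the PFC and 1.19 ± 1.37 in the hypothalamus, with 1, 1, 4 and 5 libraries at 0. Only the hippocampus against the hypothalamus was called (log2FC 2.27, SE 0.84, adjusted p 0.0193), and not without the libraries with another region's markers (adjusted p 0.0715). With the libraries of all 4 conditions the log2FC was 0.62 (adjusted p 0.118), and the striatum was lower than the hypothalamus (-0.81, adjusted p 0.0441) and the PFC (-0.94, adjusted p 0.0381), against 0.89 and 0.18 in SAL-SAL. The striatal library of animal 3-2 held the highest striatal values of Htr3a (13.8 CPM), Htr1a (13.0 CPM) and Htr4 (154 CPM), and its striatal markers summed to 52.0 CPM against a striatal median of 1136.

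In 18 animals with libraries of all 4 regions, over all conditions, the region with the highest level was shared by most animals for some receptors. Htr4 was highest in the hippocampus in 15 of 18 animals and Htr2c was highest in the striatum in 15. Htr1a peaked in the hippocampus in 12 and in the hypothalamus in 6, and Htr1d in the striatum in 11 and in the PFC in 6. Htr1f was highest in the PFC in 10 animals and in the hypothalamus in 0. Htr5a was highest in the hypothalamus in 9 animals and in the hippocampus in 7, so its place was not fixed.

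The conditions were compared within each region in a fit of all its libraries with condition and sex. In the hypothalamus, the fit of 28859 genes called 1 of the 10 receptors over 5 exposure and LPS comparisons, Htr1b, in the difference between the LPS responses (interaction), where 3.8% of all genes were called. edgeR called 0 receptors in MOR-SAL vs SAL-SAL (2 at an unadjusted p under 0.05), between MOR-LPS and SAL-LPS (1), between SAL-LPS and SAL-SAL (3) and MOR-LPS vs MOR-SAL (2), where 1.44%, 1.03%, 0.246% and 6.27% of all genes were called, and DESeq2 also called 0 in each. Over all regions, 20 of 200 such receptor tests (10%) had an unadjusted p under 0.05, where 10.1% to 20.5% of all genes did in each comparison. The receptors' share was thus not above that of all genes.

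Htr1b in the hypothalamus ran from 0 to 21.98 CPM in SAL-SAL with a median of 4.03, from 6.93 to 21.1 in MOR-SAL (median 14.4), from 0 to 19.0 in SAL-LPS (median 10.5) and from 0.330 to 22.2 in MOR-LPS (median 6.04). All 14 MOR-SAL libraries lay above the SAL-SAL median and 12 of 14 MOR-LPS libraries below the SAL-LPS median, though all groups overlapped. The response to LPS differed between the exposures by a log2FC of -2.10 (SE 0.58, adjusted p 0.0256). Each of its parts had an unadjusted p under 0.05 and edgeR called none. MOR-SAL against SAL-SAL had a log2FC of 1.02 (SE 0.41, adjusted p 0.163) and SAL-LPS against SAL-SAL 0.97 (SE 0.44, adjusted p 0.282). MOR-LPS against SAL-LPS had -1.08 (SE 0.40, adjusted p 0.158) and MOR-LPS against MOR-SAL -1.13 (SE 0.38, adjusted p 0.0554). These comparisons share groups and are not independent. Without the libraries with another region's markers the exposure difference after saline was 0.69 (unadjusted p 0.0951) and the LPS response after saline exposure 0.78 (unadjusted p 0.0947), while the other parts were -0.98 and -0.90 with an unadjusted p under 0.05. With litter as a replicate block the interaction kept its size (log2FC -2.25) and was not called (adjusted p 0.144), while MOR-LPS against MOR-SAL was (adjusted p 0.0450). The interaction was called in 5 of 12 alternatives and in 14 of 17 removals of a litter, not without litter 4, 10 or 16, and its unadjusted p was under 0.05 in all of them.

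Htr1d stood beside Htr1b in the hypothalamus, at a lower level. Its lowest, median and highest CPM were 0, 0 and 2.03 in SAL-SAL, 0, 2.25 and 9.15 in MOR-SAL, 0, 1.22 and 4.86 in SAL-LPS and 0, 0.458 and 9.61 in MOR-LPS. In that order 6 of 11, 1 of 14, 2 of 12 and 5 of 14 libraries were at 0, and the counts summed to 26, 252, 247 and 152. Of the 14 MOR-SAL libraries, 13 lay above the SAL-SAL median of 0. The log2FC was 2.69 (SE 0.88, adjusted p 0.0841) for MOR-SAL against SAL-SAL, 2.26 (SE 0.89, adjusted p 0.196) for SAL-LPS against SAL-SAL and -3.50 (SE 1.16, adjusted p 0.0709) for the interaction. edgeR and DESeq2 called none of the 3, which all had an unadjusted p under 0.05 in edgeR. MOR-SAL against SAL-SAL was called with limma on log2(CPM + 1) (adjusted p 0.0380) and with edgeR's bias-adjusted fit (adjusted p 0.0476), which also called the interaction (adjusted p 0.0285). Without the libraries with another region's markers the 3 values were 2.32, 1.78 and -2.72, with adjusted p of 0.251, 0.574 and 0.253.

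**Figure D3:**
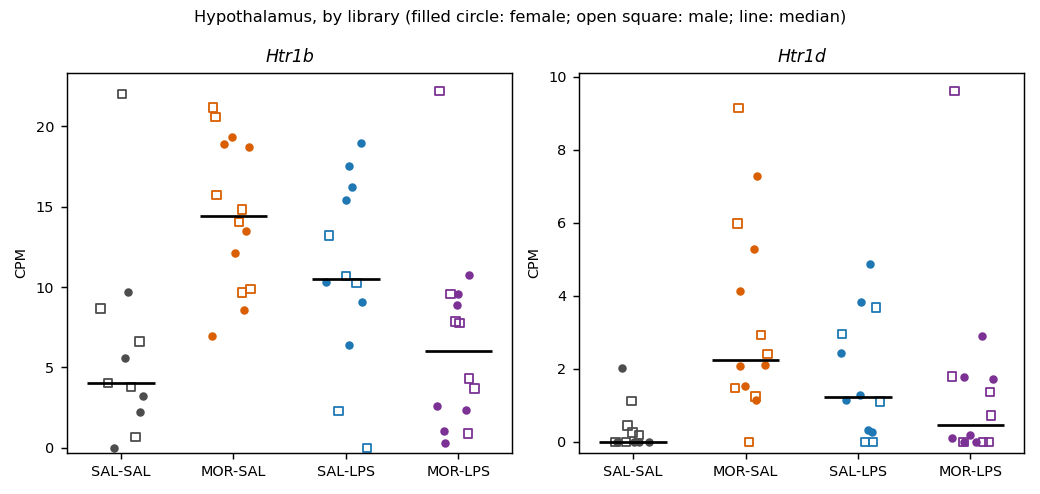
CPM of Htr1b and Htr1d in each hypothalamic library by condition, with filled circles for females, open squares for males and lines at the medians. For Htr1b the median is 4.03 in SAL-SAL, 14.4 in MOR-SAL, 10.5 in SAL-LPS and 6.04 in MOR-LPS, and the groups overlap for both genes.

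The stretches of 250 bases before the RefSeq starts of both genes (GRCm38.p6) are shown because these genes had the largest hypothalamic log2FC of the 10 in MOR-SAL against SAL-SAL and in the interaction. Their signs were those of most receptors, of which 9 of 10 were positive in MOR-SAL against SAL-SAL, 8 of 10 positive in SAL-LPS against SAL-SAL and 9 of 10 negative in the interaction. The median log2FC of all genes was 0.070, 0.066 and -0.056 in that order. These comparisons all use the same SAL-SAL libraries, so their signs are not independent. Capitals mark the motifs found, on either strand, among the TATA box TATAAA, the CCAAT box CCAAT, the GC box GGGCGG and the cAMP response element TGACGTCA. Htr1b has 1 start, and Htr1d has 2.
Htr1b, chr9:81633833-81634082, minus strand: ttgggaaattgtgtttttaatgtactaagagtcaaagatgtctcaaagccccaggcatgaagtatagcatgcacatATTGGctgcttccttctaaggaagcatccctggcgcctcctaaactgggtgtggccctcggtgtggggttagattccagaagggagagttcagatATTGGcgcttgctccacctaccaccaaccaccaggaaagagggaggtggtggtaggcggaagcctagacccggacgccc
Htr1d, first start, chr4:136423274-136423523, plus strand: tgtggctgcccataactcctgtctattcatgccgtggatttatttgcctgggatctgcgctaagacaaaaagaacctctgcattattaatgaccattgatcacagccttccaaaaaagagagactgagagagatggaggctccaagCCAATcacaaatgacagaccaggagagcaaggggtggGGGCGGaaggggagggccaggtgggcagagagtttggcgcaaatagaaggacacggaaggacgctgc
Htr1d, second start, chr4:136424362-136424611, plus strand: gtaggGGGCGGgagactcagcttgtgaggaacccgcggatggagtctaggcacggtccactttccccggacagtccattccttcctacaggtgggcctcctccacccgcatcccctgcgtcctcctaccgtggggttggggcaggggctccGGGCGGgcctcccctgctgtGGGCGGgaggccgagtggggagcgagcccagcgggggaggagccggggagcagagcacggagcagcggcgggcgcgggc
The Htr1b stretch holds 2 CCAAT boxes on the opposite strand, starting 174 and 79 bases before the start. The first Htr1d stretch holds a CCAAT box at 104 bases and a GC box at 67, and the second holds GC boxes at 245, 99 and 79 bases. CCAAT was found in 33.8% and GGGCGG in 32.7% of 32851 such stretches, TATAAA in 12.4% and TGACGTCA in 1.55%. Of the other members in the table, Htr1a and Htr2a hold a GC box and Htr2c a CCAAT box, and none of the 4 motifs lies in the stretches of Htr1f, Htr5a and Htr7. A match is a description of the letters only.

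The exons of Htr1b share 852 bases (18%) with exons of the antisense gene D430036J16Rik (chr9:81631551-81645156, plus strand), which also spans the stretch above, and how counting used the strand is not given in the sources used here. The medians of D430036J16Rik were 1.91, 3.26, 4.19 and 1.26 CPM in the 4 groups, in the order given for Htr1b. Its interaction had a log2FC of -1.99 (SE 0.88, adjusted p 0.226) and its exposure difference without LPS was 0.09. Without the strand, reads of the overlap cannot be assigned to 1 of the 2 genes. Marker sums of other cell types also had different medians in these groups. The 6 of 6 striatal markers had median sums of 103, 195, 144 and 91.2 CPM in that order of groups (ranges 27.2 to 181, 89.96 to 439, 0 to 793 and 59.2 to 164). The 6 of 6 hypothalamic markers had 28.5, 64.97, 42.2 and 24.9 CPM (ranges 0 to 142, 4.94 to 135, 0 to 238 and 0 to 236), and the 4 of 4 astrocyte markers 15.0, 22.7, 22.2 and 143 CPM (ranges 1.77 to 314, 8.98 to 41.1, 0 to 261 and 13.5 to 479.8). No marker of these lists was at 0 in all hypothalamic libraries, and their part in the Htr1b values was not tested. Without the libraries with another region's markers the Htr1b interaction was -1.67 (adjusted p 0.134), without those against the labelled sex -1.94 (adjusted p 0.0593), both alternatives chosen after seeing the data, and without the 3 low-depth libraries -1.98 (adjusted p 0.0411).

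Of the other hypothalamic receptors, 3 had an unadjusted p under 0.05 in 1 comparison each. Htr4 had medians of 21.4 CPM in SAL-SAL and 36.6 in SAL-LPS (log2FC 0.75, SE 0.34, adjusted p 0.293, and 0.52 without the libraries with another region's markers). Over 12 alternatives this Htr4 log2FC ran from 0.04 to 0.75, with an unadjusted p under 0.05 in 4. Htr7 had medians of 21.0 CPM in MOR-SAL and 10.8 in MOR-LPS (log2FC -0.70, SE 0.28, adjusted p 0.116, and -0.41 without those libraries). For Htr2c, with medians of 73.7, 99.97, 73.0 and 65.9 CPM in the 4 groups, the interaction was -0.80 (SE 0.39, adjusted p 0.297), and -0.11 without those libraries. All 3 were short of the adjusted threshold, and all receptor values with an unadjusted p of 0.05 or more lay between -1.25 and 0.95 over the 5 comparisons.

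In the hippocampus, edgeR over 22076 genes called 0 of the 10 receptors in each comparison, and DESeq2 also called 0. All-gene shares were 0% in MOR-SAL vs SAL-SAL (10.3% at an unadjusted p under 0.05, and 7 genes by DESeq2), 2.73% between MOR-LPS and SAL-LPS, 2.55% between SAL-LPS and SAL-SAL, 0.467% in MOR-LPS vs MOR-SAL and 2.35% in the interaction. Htr1f alone had an unadjusted p under 0.05, in 2 comparisons. Its lowest, median and highest CPM were 8.62, 52.1 and 70.9 in SAL-SAL, 0, 30.8 and 84.0 in MOR-SAL, 19.9, 79.4 and 213 in SAL-LPS and 4.94, 54.9 and 95.1 in MOR-LPS. SAL-LPS was the high group, with a log2FC of 1.02 (SE 0.35, adjusted p 0.0897) against SAL-SAL, and MOR-LPS had -0.92 (SE 0.34, adjusted p 0.112) against SAL-LPS. Both values shrank to 0.29 and -0.13 without the libraries with another region's markers, which made up 6 of 14 SAL-LPS libraries. The 3 of 3 hippocampal markers had median sums of 1888, 2056, 1209 and 1919 CPM in the same order of groups (ranges 139 to 3955, 1116 to 3181, 212 to 2830 and 875 to 3902), none was at 0 throughout, and their part in the result was not tested. All other receptor values lay between -1.41 and 1.14 (log2FC). Htr4, the leading hippocampal receptor, had medians of 159, 168, 153 and 158 CPM in those groups.

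In the PFC, edgeR over 21729 genes and DESeq2 both called 0 receptors in each comparison. Of all genes, 0% were called in MOR-SAL vs SAL-SAL (10.1% at an unadjusted p under 0.05, and 15 genes by DESeq2) and 0% in SAL-LPS vs SAL-SAL (12.7%, and 70 by DESeq2). The shares were 0.0046% in MOR-LPS vs SAL-LPS, 0.0184% in MOR-LPS vs MOR-SAL and 1.78% in the interaction. Htr7 alone had an unadjusted p under 0.05, in MOR-SAL against SAL-SAL (log2FC 1.34, SE 0.65, adjusted p 0.468). It ran from 1.04 to 17.5 CPM in SAL-SAL (median 5.78) and from 4.41 to 38.7 in MOR-SAL (median 13.5), with medians of 5.92 in SAL-LPS and 5.28 in MOR-LPS. The groups overlapped. All other receptor values lay between -1.81 and 1.34 (log2FC). Htr1f, which leads in the PFC, had medians of 78.6 and 89.2 CPM in SAL-SAL and MOR-SAL, and 91.7 and 83.9 CPM after LPS in the saline and morphine exposed.

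In the striatum, edgeR over 23426 genes and DESeq2 again called 0 receptors. Of all genes, 0% were called in MOR-SAL vs SAL-SAL (11.5% at an unadjusted p under 0.05, and 6 genes by DESeq2), 0% between MOR-LPS and SAL-LPS (11.2%, and 98 by DESeq2), 0.0128% between SAL-LPS and SAL-SAL, 1.39% in MOR-LPS vs MOR-SAL and 0.00854% in the interaction. In MOR-SAL against SAL-SAL, Htr1a (medians 0.879 and 2.03 CPM) had a log2FC of -1.29 (SE 0.60, adjusted p 0.401) and Htr3a (medians 0.447 and 1.57 CPM) had -1.97 (SE 0.75, adjusted p 0.324). The SAL-SAL library of animal 3-2, with few striatal markers, held the highest value of both, and without all libraries with another region's markers the log2FC were -0.87 and -1.19. Htr1a also had an interaction of 1.65 (SE 0.75, adjusted p 0.287), which was 0.83 (unadjusted p 0.336) without those libraries. Htr2a had medians of 29.7 CPM in SAL-SAL and 35.7 in SAL-LPS (log2FC 0.62, SE 0.31, adjusted p 0.418). In MOR-LPS against MOR-SAL, Htr1d had medians of 6.48 and 11.3 CPM (log2FC -1.11, SE 0.41, adjusted p 0.150) and Htr4 39.9 and 59.3 CPM (log2FC -0.68, SE 0.25, adjusted p 0.143). All other receptor values lay between -0.93 and 1.49 (log2FC). Htr2c, the most abundant by CPM, had medians of 169.7, 204, 186 and 167 CPM in the 4 groups.

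**Figure D4:**
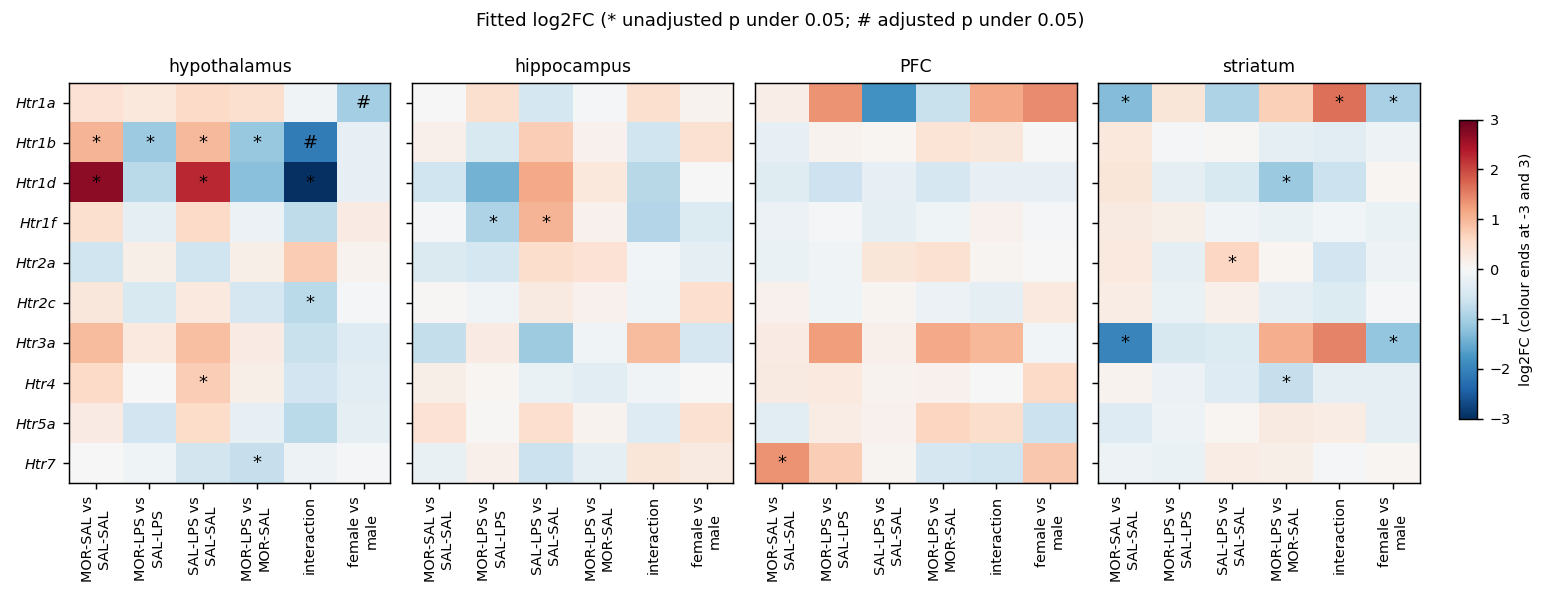
Fitted log2FC of the 10 receptors (rows) in 5 exposure and LPS comparisons and between the sexes (columns) for the 4 regions, red for positive and blue for negative. Stars mark an unadjusted p under 0.05 and hash signs an adjusted p under 0.05, which only Htr1b in the interaction (-2.10) and Htr1a between the sexes (-1.02) reached, both in the hypothalamus.

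Between the sexes, Htr1a was lower in females in the hypothalamus by a log2FC of -1.02 (SE 0.31, adjusted p 0.0492), the only call among 40 tests. The lowest, median and highest CPM were 0, 6.17 and 14.2 in 26 female and 0, 9.66 and 25.5 in 25 male libraries, which overlapped. Females had the lower median in SAL-SAL (0 against 8.62), MOR-SAL (6.85 against 10.5) and MOR-LPS (6.29 against 18.0), and the higher in SAL-LPS (6.86 against 5.66). The call held in 3 of 11 alternatives and 4 of 17 removals of a litter, with the log2FC between -1.12 and -0.81 over the alternatives. In the striatum Htr1a had -0.97 (SE 0.35, adjusted p 0.165), or -0.68 without the libraries with another region's markers, and Htr3a -1.17 (SE 0.44, adjusted p 0.183). All genes were called between the sexes at 3.45% in the hypothalamus, 2.51% in the hippocampus, and 0.709% and 0.841% in PFC and striatum. Of the 18 litters, 17 held 1 sex.

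Around the receptors, 31 further genes of the serotonin pathway (1 of them, Ppp1r1b, also a striatal marker) were followed, of which 30 were tested in the hypothalamus and 29 in the other regions. The rate-limiting synthesis gene Tph2 and the serotonin transporter Slc6a4, both made in raphe neurons, had medians of 0 to 0.388 and of 0 CPM. Over the exposure and LPS comparisons, edgeR called 3 of these genes in the hypothalamus, 1 in each of 4 comparisons where 1.44%, 1.03%, 6.27% and 3.8% of all genes were called. It called 2 in the hippocampus, 1 in each of 2 comparisons (2.73% and 2.55% of all genes), 1 in the striatum (1.39%) and 0 in the PFC. Slc6a4 was lower in the hypothalamus of MOR-LPS than of SAL-LPS (log2FC -4.91, SE 1.27, adjusted p 0.0428) and of MOR-SAL (log2FC -4.79, SE 1.24, adjusted p 0.0137), but its mean was 0.858 CPM and 40 of 51 libraries were at 0. The RNA-editing gene Adarb1, whose enzyme edits Htr2c transcripts, was lower in MOR-SAL than SAL-SAL in the hypothalamus (log2FC -1.23, SE 0.27, adjusted p 0.00992). Over all hypothalamic libraries Adarb1 ran from 0 to 1128 CPM, with a median of 201. Alternatives and litter removals were summarised for the receptors only, so all calls of pathway genes rest on the main fit. Kcnj3, a subunit of the potassium channel opened by Gi/o-coupled receptors, had a positive hypothalamic interaction (log2FC 1.12, SE 0.29, adjusted p 0.0166). In the hippocampus, Adar was higher in SAL-LPS than SAL-SAL (log2FC 0.49, SE 0.13, adjusted p 0.0286) and Htr3b in MOR-LPS than SAL-LPS (log2FC 4.03, SE 1.13, adjusted p 0.04996), with 53 of 55 libraries at 0 for Htr3b. In the striatum, Ddc, the last enzyme of serotonin and dopamine synthesis, was higher in MOR-LPS than MOR-SAL (log2FC 2.12, SE 0.54, adjusted p 0.0346).  Between the sexes, Slc6a4 (log2FC -3.85, SE 0.88, adjusted p 0.00832) and Gnaz, a Gi/o class subunit (log2FC -0.52, SE 0.14, adjusted p 0.0274), were lower in females in the hypothalamus. Between regions, 20, 23 and 17 of 30 pathway genes were called against the hypothalamus in the hippocampus, PFC and striatum, where 52.8%, 54.1% and 51.5% of all genes were. The 30 include Gnaz and Htr2b, which are at 0 in every library of the other 3 tables, as are many genes of the hypothalamic table. Among the other pairs 11 were called between PFC and hippocampus (9.98% of all genes), 5 between striatum and hippocampus (7.59%) and 5 between striatum and PFC (9.31%).

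Within a region, receptors varied with marker sums between libraries to different degrees. Correlations are of log2(CPM + 1) after subtracting the mean of each condition and sex, over libraries that are not low-depth, and are descriptions with no p, since both values of a point come from 1 library and share its depth. In the striatum (n = 54) Htr1b followed the striatal projection neuron markers with r = 0.88 and Htr1d with 0.82, ahead of the interneuron markers at 0.77 and 0.72, and both followed each other with 0.74. Htr7 went the other way, with -0.64 to the striatal and 0.74 to the cortical excitatory markers. In the PFC (n = 45) Htr1b had r of 0.75 to the interneuron, 0.74 to the striatal and 0.71 to the hippocampal markers, Htr1f followed the cortical ones (0.67), and Htr2c had -0.74 to the cortical, 0.85 to the hippocampal and 0.80 to the choroid plexus markers. In the hippocampus (n = 53) Htr4 followed the hippocampal markers (0.83) and Htr1f had -0.61 to them. Htr1d there, at 0 in most SAL-SAL libraries, had 0.82 to the striatal markers. To the striatal markers in the striatum, Htr2a had 0.55, Htr2c 0.18, Htr4 -0.23 and Htr5a -0.03, and Htr1f there had 0.72 to the neuronal markers. In the hypothalamus (n = 48) Htr1b had 0.49 to the interneuron, 0.40 to the striatal, 0.35 to the choroid plexus, 0.33 to the endothelial and 0.32 to the hypothalamic markers. Htr1d had 0.47 to the endothelial, 0.29 to the hypothalamic and 0.05 to the striatal ones. The 45 receptor pairs there had r between -0.23 and 0.50.

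**Figure D5:**
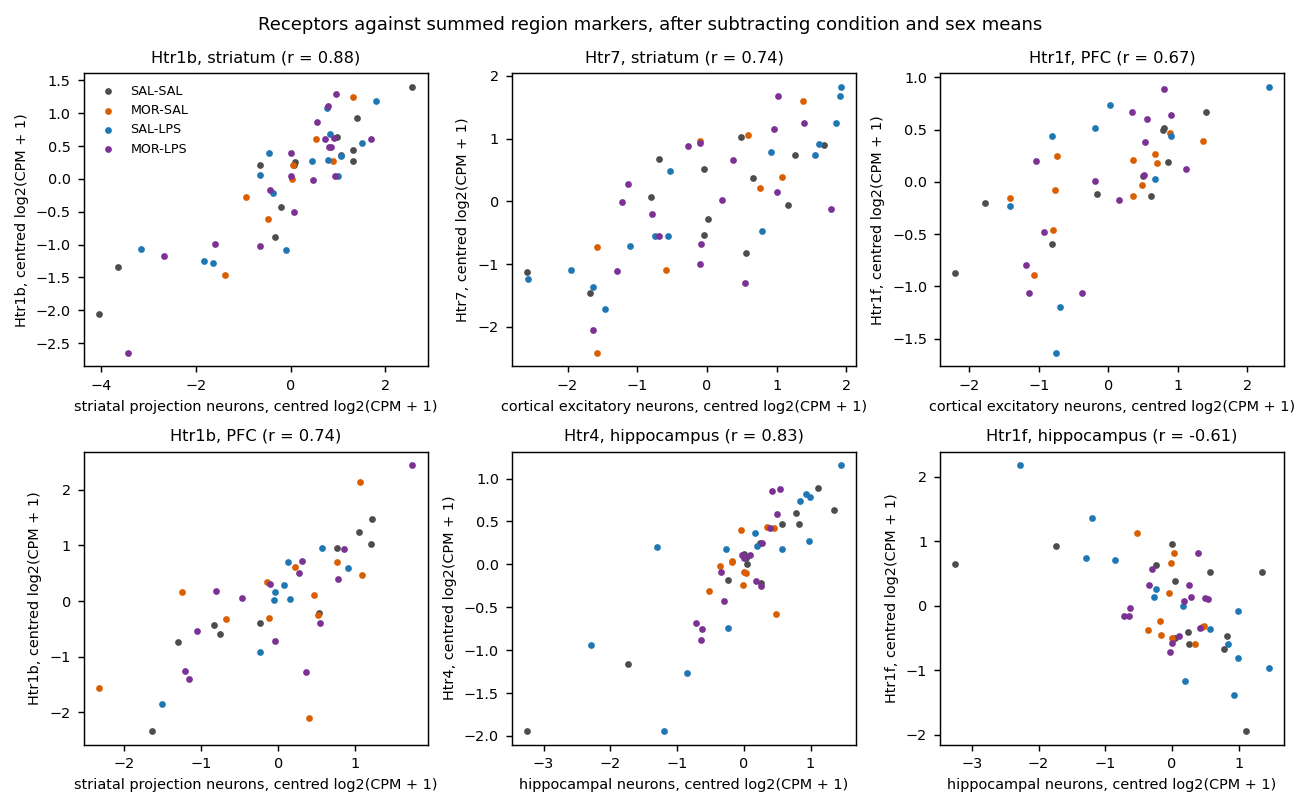
Receptor level against the summed markers of a neuron class in single libraries, both as log2(CPM + 1) with condition and sex means subtracted, coloured by condition. The clouds rise for Htr1b in the striatum (0.88) and PFC (0.74), Htr7 in the striatum (0.74), Htr1f in the PFC (0.67) and Htr4 in the hippocampus (0.83), and fall for Htr1f in the hippocampus (-0.61).

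The genes with the most similar pattern were taken as the 3 highest r in the region where a receptor had its highest mean over the libraries of all conditions, among genes with a mean of at least 5 CPM. For Htr4 in the hippocampus (n = 53) they were Prox1 (0.87), a marker of dentate granule cells and a member of the hippocampal list, Dock10 (0.85) and Ahcyl2 (0.83). For Htr1b in the striatum (n = 54) they were Kcnab1 (0.89), Gpr83 (0.88) and Pde1b (0.88), and for Htr1d Sv2c (0.87), Rxrg (0.83) and Pde1b (0.82). Htr7 there came with Tox (0.89), Prlr (0.89) and C530008M17Rik (0.88). In the PFC (n = 45) Htr1f came with Apba1 (0.78), Tox3 (0.77) and Dpp10 (0.77), and Htr2a with Tox2 (0.72), Ppm1h (0.70) and Cdh9 (0.70). Htr3a in the hippocampus reached 0.66 with Bcl9, 0.59 with Bcl9l and 0.59 with Ndrg1. In the hypothalamus (n = 48), where its mean over all conditions was 8.57 CPM against 7.32 in the hippocampus, Htr1a reached 0.75 with Kdelr1, 0.67 with Mtg1 and 0.66 with Gabra5, and Htr5a 0.75 with Zfp28, 0.75 with Vkorc1l1 and 0.72 with Nol6.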

How the data were processed

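Libraries were made from nuclear RNA of NeuN+ nuclei with a modified Smart-seq3 protocol and tagmentation. The submitters' processing notes name Trim Galore 0.6.7, STAR 2.7.10a, HTSeq 0.12.4, DESeq2 1.40.2 and mm10. The authors deposited whole-number counts per gene and library, 46403 genes for each region. They also deposited CPM of the same counts for 46366 genes, after 37 mitochondrial genes were left out, and the CPM were recomputed from the counts without difference. Use of strand and of molecular identifiers in counting is not given in the sources used here. 0 columns of samples outside the series were found.

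Genes with a total count above 10 in a region were fitted with edgeR 4.0.16 (R 4.3.3, TMM, quasi-likelihood test, condition and sex), with Benjamini-Hochberg adjustment over all genes tested and a threshold of 0.05. The interaction is the LPS response after morphine minus that after saline. Regions were compared in SAL-SAL libraries with region and sex. On simulated data with 200 genes changed by a log2FC of 2 between MOR-SAL and SAL-SAL, 79% were recovered in the hypothalamus (27814 genes, 103 false calls, of which 9 with a mean count of 10 or more), 80.5% in the hippocampus (21339 genes, 135 and 9), 65% in the PFC (20975 genes, 78 and 7) and 77.5% in the striatum (22573 genes, 49 and 7). Most of edgeR's false calls thus had a mean count under 10, and the pathway genes Slc6a4 and Htr3b were at 0 in most libraries. The 200 changed genes were drawn from those with a mean count above 10, so recovery of genes with fewer counts was not measured. In the hypothalamus the false calls were 27 with the bias adjustment, 16 with DESeq2, 8 with filterByExpr (18806 genes) and 1 with limma-voom, which recovered 67.5%. DESeq2 1.42.0 and limma 3.58.1 were alternatives, with other scalings, filters and pseudocounts, and left-out litters or libraries. Low-depth libraries held under 0.5 of their region's median count.

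In the study's sample list the replicate number names litter and animal, and was used as the litter, although the study's methods count more litters. Deviations from group means had a median r of 0.020 over 206 pairs of libraries of 1 animal in different regions and of -0.052 to 0.012 within litters. All libraries were treated as separate samples in the main fit, so p-values do not count that litter mates share a dam.

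All 10 receptors are named. Fold changes are given where the unadjusted p was under 0.05 or the gene was called, and pathway genes are named where called. The genes with a pattern most like that of Htr2c are not reported here. The members and lists were chosen with earlier results of these data known. Positions are of GENCODE M21 on mm10, and stretches before starts are of RefSeq GRCm38.p6, found for 8 of 10 members, not for Htr3a and Htr4.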

Additional observations from a re-analysis of the deposited data

Results flagged for a closer look

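The LPS response of Htr1b in the hypothalamus differed between the exposures by a log2FC of -2.10 in edgeR's test of the difference itself (adjusted p 0.0256). The call was lost in 7 of 12 alternatives, among them litter as a replicate block (adjusted p 0.144) and voom with the litter correlation (adjusted p 0.0657).

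Of 30 groups of 4 to 10 libraries examined for a single value far from the rest of its group, 2 had one, and chance gives about 1 in 20. Htr2c reached 240.2 CPM in the SAL-SAL PFC library of animal 4-1, where the next of the group had 140.5, and striatal markers summed to 1471 and cortical ones to 58.0 CPM in that library. Htr3a reached 5.09 CPM, from 70 counts, in the SAL-SAL PFC library of animal 4-3, where the next had 2.63.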

How the results depend on the processing

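Of 318 alternative counts of called receptors, 293 stayed within 1.5 times the main count. Within regions the main fit called 1 receptor in 200 exposure and LPS tests and 1 in 40 sex tests. A count of 0 in both fits was taken as unchanged, so most of this agreement within regions is a lack of calls. In the hypothalamus, the 0 calls of MOR-SAL vs SAL-SAL became 1 with limma on log2(CPM + 1) and with edgeR's bias-adjusted quasi-likelihood, and those of MOR-LPS vs MOR-SAL became 1 with litter as a replicate block and with the bias adjustment. The 1 interaction call became 0 with filterByExpr, voom with litter, litter as a replicate block, limma with a pseudocount of 1 or 0.1, and without libraries with another region's markers or against the labelled sex, and 2 with the bias adjustment. The 1 sex call became 0 with filterByExpr, DESeq2's size factors, library size only, both limma fits, and without low-depth libraries, libraries with another region's markers or those against the labelled sex. Between regions, the 7 calls of PFC against hippocampus became 4 with animal as a replicate block and without libraries with another region's markers. With all 4 conditions, striatum against hippocampus went from 4 to 8 and striatum against PFC from 3 to 6. The share of all genes called in that larger fit is not given here. Striatum against PFC went to 5 without libraries with another region's markers. With all 4 conditions Htr3a reversed to -0.81 (striatum against hypothalamus) and -0.94 (striatum against PFC) from 0.89 and 0.18. The bias adjustment and both removals by markers or sex were chosen after seeing the data, and the cause of these changes was not tested.

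With 1 litter left out, calls in the hypothalamus ran from 0 to 1 for MOR-SAL vs SAL-SAL (1 without litter 9), from 0 to 1 for MOR-LPS vs MOR-SAL (1 without 1, 5, 17 or 18), from 0 to 2 for the interaction (0 without 4, 10 or 16, and 2 without 9 or 13) and from 0 to 1 for sex (0 without 13 of 17 litters), and in the hippocampus from 0 to 1 for SAL-LPS vs SAL-SAL (1 without litter 5). Of 250 alternative fold changes within regions, taken only for receptors with an unadjusted p under 0.05 in the main fit, 0 reversed. The block changed no other receptor count by over 1.5 times. Levels near 3 counts, as for Htr1d and Htr3a, are limited by depth.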
